A study of Mus musculus with 6 samples.

Results

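The genes described here are 10 mouse genes named for histone H3 lysine 9 (H3K9) methylation: the methyltransferases Suv39h1, Suv39h2, Setdb1, Setdb2, Ehmt1 and Ehmt2, the PRDM genes Prdm2, Prdm16 and Mecom, and the zinc-finger partner Wiz. They were chosen by symbol from a table of 35976 genes, and all 10 were found. Polyadenylated RNA was sequenced from chondrocytes, the cells that build cartilage matrix, isolated at embryonic day 18.5 from hind limb articular cartilage of C57BL/6 x 129S4/SvJae mice and grown on tissue culture plastic for 16 population doublings. Both groups carried an inducible transgene for the histone variant H3.3 and received doxycycline at 2 µg/ml throughout. In the H3K9M group (3 libraries, replicates 1, 3 and 5) the encoded histone had methionine at position 9, and the labels call H3K9 methylation suppressed in these cells. In the H3WT group (3 libraries, replicates 1, 2 and 4) it was wild-type H3.3. There was no uninduced or unexpanded group, and the sources used here do not give the promoter of the transgene or say whether replicates came from separate animals. P-values therefore measure the spread between these libraries, which may be in part technical.

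Methylation of H3K9 is a mark of silenced chromatin and is written by several families of SET-domain enzymes. SUV39H1 and SUV39H2 place trimethylation on pericentromeric heterochromatin. EHMT2 (G9a) and EHMT1 (GLP) form a heterodimer that places mono- and dimethylation in euchromatin, and WIZ is a zinc-finger protein of that complex. SETDB1 trimethylates H3K9 at sites to which TRIM28 brings it, and SETDB2 is its closest relative. PRDM2, PRDM16 and MECOM (PRDM3) carry a PR domain, a relative of the SET domain, next to zinc fingers. PRDM16 and MECOM are closely related transcriptional regulators, also known for roles in brown fat, blood stem cells and craniofacial cartilage. The question put here is whether transcripts of these genes differed between cells with the mutant histone and cells with wild-type H3.3.

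Read totals per library were 15113675 to 19606082, and every one of the 10 genes passed the filter on low counts, with 105 (Suv39h2) to 4757 (Ehmt2) reads in a library. Of the 13761 genes tested, 0 (0%) passed an adjusted p of 0.05 (edgeR quasi-likelihood test, Benjamini-Hochberg adjustment). Principal component 1 (35.5% of the variance) did not separate the groups, while component 2 (28.8%) did, at 19.0 to 39.8 in H3K9M and -71.5 to -11.4 in H3WT, with H3WT replicate 2 farthest out. The chondrocyte label was checked against 10 cartilage markers, all of which were tested, 0 of them past the threshold. With all 6 libraries, all 10 had negative log2 fold changes, as had 50.4% of all genes. The median of the 10 markers was -0.82, and -0.26 without H3WT replicate 2, so the shared sign may rest in part on that library. Col2a1, the main cartilage collagen, was the highest, with 4971, 5521 and 8421 CPM (counts scaled to library size, TMM-normalised) in H3K9M replicates 1, 3 and 5 and 4913, 14110 and 9904 CPM in H3WT replicates 1, 2 and 4. The summed level of these markers was 7320 to 11444 CPM in H3K9M and 7221 to 19055 CPM in H3WT, with H3WT replicate 2 at the top. Col9a1, a cartilage collagen with the smallest p of the list, was at -1.89 on the log2 scale (SE 0.75, adjusted p 0.395, edgeR).

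Of the 10 genes, 0 passed the adjusted threshold (edgeR quasi-likelihood test), as was true of 0% of all genes tested. The DESeq2 Wald test called 1, Prdm16, where it called 2.83% of all genes, and limma-voom called 0, as it did of all genes. At an unadjusted p under 0.05 there were 3 of the 10, namely Prdm16, Ehmt1 and Ehmt2, all lower in H3K9M and 0 higher. Of all genes, 12.2% were at that level, 5.77% lower and 6.42% higher. The 3 H3K9M libraries lay all below or all above the 3 H3WT libraries for 4 of the 10, against 19.4% of all genes. Prdm16, Ehmt1 and Ehmt2 lay below, as did 8.68% of all genes, and Mecom lay above, as did 10.7%. The median log2 fold change of the 10 genes was -0.14, against -0.003 for all genes tested, and 8 of the 10 values were negative, as were 50.4% of all. The tally of signs rested in part on single libraries: without H3WT replicate 1 there were 5 negative and 5 positive values (median -0.09), and with a correction for GC content and transcript length 6 and 4 (median -0.09). The median was -0.07 without H3K9M replicate 1 and -0.23 without H3WT replicate 4.

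**Figure D1:**
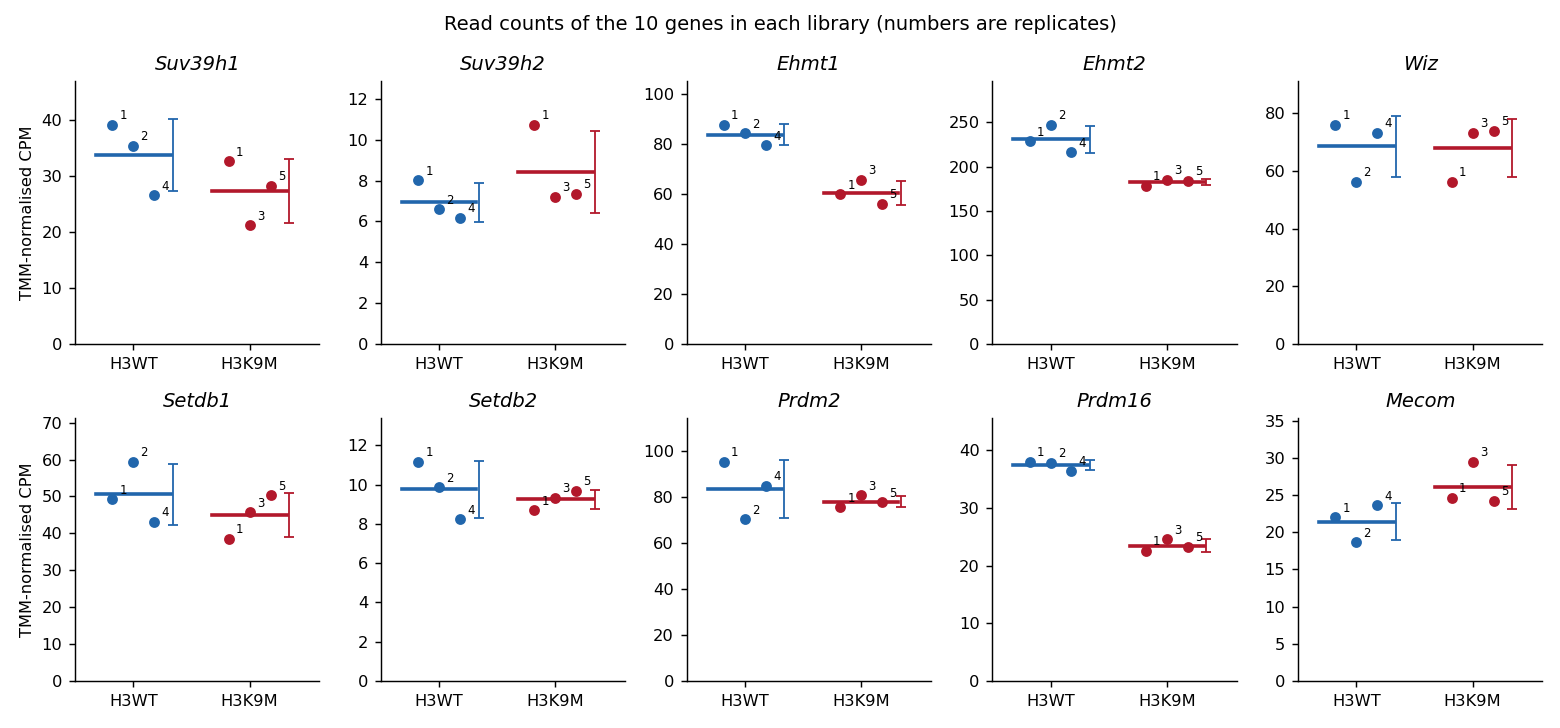
TMM-normalised CPM (linear axis from 0) of the 10 genes in each library, with the replicate number beside each point, the group mean as a horizontal line and the SD over 3 libraries as an error bar. Prdm16, Ehmt1 and Ehmt2 have all 3 H3K9M libraries below all 3 H3WT libraries, Mecom has them above, and the groups overlap in the other genes.

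Prdm16 had the largest fitted difference of the 10. It encodes a PR-domain zinc-finger regulator known for brown fat identity and as a repressor of muscle genes there, and it lies on chromosome 4 (154316122 to 154637360, GRCm38.p6, minus strand). Its level was 22.6, 24.6 and 23.3 CPM in H3K9M replicates 1, 3 and 5 and 38.1, 37.9 and 36.5 CPM in H3WT replicates 1, 2 and 4. Each group was tight, and the lowest H3WT library stood well above the highest H3K9M library. The H3WT mean of 37.5 ± 0.874 CPM was 1.59-fold above the H3K9M mean of 23.5 ± 1.05 CPM (SD, n = 3 each). On the log2 scale the difference, H3K9M minus H3WT, was -0.67 (SE 0.14, 95% interval -0.996 to -0.35, adjusted p 0.194, edgeR), and 0.661% of all genes had a smaller p. A correction for GC content and length of the transcript brought it to -0.42 (adjusted p 0.506), and the DESeq2 Wald test gave -0.68 (adjusted p 0.00796). Its adjusted p ran from 0.00796 to 0.506 over 14 alternatives, all of which kept its direction.

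Ehmt1 and Ehmt2, the genes of the GLP and G9a subunits, were both lower in every H3K9M library than in any H3WT library. Ehmt1 lies on chromosome 2 (24790769 to 24919643, minus strand) and Ehmt2 on chromosome 17 (34898463 to 34914073, plus strand). Ehmt1 had 59.9, 65.7 and 56.1 CPM in H3K9M replicates 1, 3 and 5 and 87.7, 84.3 and 79.5 CPM in H3WT replicates 1, 2 and 4. The H3WT mean was 83.8 ± 4.10 CPM against 60.6 ± 4.83 CPM in H3K9M (SD, n = 3 each), 1.38-fold higher, with a log2 fold change of -0.47 (SE 0.12, 95% interval -0.74 to -0.20, adjusted p 0.227, edgeR). It did not pass the adjusted threshold under any of the 14 alternatives, and came nearest with DESeq2 (adjusted p 0.0588).

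Ehmt2 had 178, 185 and 184 CPM in H3K9M replicates 1, 3 and 5 and 228, 247 and 216 CPM in H3WT replicates 1, 2 and 4. The gap between the groups was larger than the spread within either, with means of 183 ± 3.68 CPM and 230.4 ± 15.5 CPM (SD, n = 3 each). Its fitted log2 difference was -0.34 (SE 0.11, 95% interval -0.59 to -0.08, adjusted p 0.299, edgeR), a 1.26-fold higher level in H3WT. The longest annotated Ehmt2 transcript has a GC content of 60.8%, the highest of the 10, and the same correction left a log2 fold change of -0.08 (adjusted p 0.901). Ehmt1, at 51.2% GC, kept -0.33 under that correction (adjusted p 0.529). Prdm16, at 53.3% GC, went from -0.67 to -0.42. The correction takes GC content and length together and does not separate them. The part of either in these differences was not tested.

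Wiz, which encodes the zinc-finger partner of EHMT1 and EHMT2, gave no sign of a difference in either direction. It had 56.3, 73.2 and 74.0 CPM in H3K9M replicates 1, 3 and 5 and 76.0, 56.2 and 73.3 CPM in H3WT replicates 1, 2 and 4. In each group 2 libraries were high and 1 low. Its log2 difference was -0.01 (SE 0.17, 95% interval -0.40 to 0.37, adjusted p 0.984, edgeR), and its sign turned under 6 of the 14 alternatives. Wiz lies on chromosome 17 (32354047 to 32389501, minus strand), and 22.1% of its annotated exon bases are shared with Gm26858 on the opposite strand, so its count is uncertain unless strand was used in counting.

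Mecom, on chromosome 3 (29951296 to 30509759, minus strand), encodes the relative of PRDM16 first known as EVI1. It had 24.7, 29.5 and 24.2 CPM in H3K9M replicates 1, 3 and 5 and 22.0, 18.7 and 23.7 CPM in H3WT replicates 1, 2 and 4. All H3K9M values lay above all H3WT values, but H3K9M replicate 5 and H3WT replicate 4 were close. The means were 26.1 ± 2.94 and 21.5 ± 2.55 CPM (SD, n = 3 each), with a log2 difference of 0.29 (SE 0.18, 95% interval -0.12 to 0.70, adjusted p 0.55, edgeR). It was 0.20 without H3K9M replicate 3. Mecom is transcribed in a long form with the PR domain and a shorter form without it, and gene counts do not tell these apart.

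Prdm2 (chromosome 4, 143107391 to 143212769, minus strand) encodes RIZ1. It had 75.5, 80.5 and 77.8 CPM in H3K9M replicates 1, 3 and 5 and 95.3, 70.3 and 84.8 CPM in H3WT replicates 1, 2 and 4. The H3K9M libraries all lay within the range of the H3WT libraries. Its log2 fold change was -0.10 (SE 0.14, 95% interval -0.42 to 0.22, adjusted p 0.83, edgeR), and its sign turned with the correction for GC content and length (0.09) and without H3WT replicate 1 (0.0078), and it was -0.20 without H3WT replicate 2.

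The heterochromatin enzymes gave values on opposite sides of 0. Suv39h1, on chromosome X (8061171 to 8074760, minus strand), had 32.6, 21.2 and 28.2 CPM in H3K9M replicates 1, 3 and 5 and 39.1, 35.4 and 26.6 CPM in H3WT replicates 1, 2 and 4. The groups overlapped, with H3WT replicate 4 below H3K9M replicates 1 and 5. The fitted log2 difference of -0.30 (SE 0.22, 95% interval -0.81 to 0.20, adjusted p 0.616, edgeR) became -0.14 without H3K9M replicate 3 and -0.18 without H3WT replicate 1. The library with the least Suv39h1 in each group, H3K9M replicate 3 and H3WT replicate 4, was also the library with the lowest summed level of 16 replication and mitosis genes. That sum was 2391, 1534 and 2372 CPM in H3K9M replicates 1, 3 and 5 and 2599.5, 2654 and 1703 CPM in H3WT replicates 1, 2 and 4. The part of proliferation in the Suv39h1 values was not tested. Of the annotated exon bases of Suv39h1, 14.6% are shared with Gm14820 on the opposite strand.

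Suv39h2, on chromosome 2 (3455815 to 3474986, minus strand), was the gene with the fewest reads, 105 to 160 in a library. It had 10.7, 7.20 and 7.35 CPM in H3K9M replicates 1, 3 and 5 and 8.03, 6.59 and 6.19 CPM in H3WT replicates 1, 2 and 4. H3K9M replicate 1 stood above the rest, and H3WT replicate 1 lay above the other H3K9M libraries. The log2 fold change was 0.28 (SE 0.29, 95% interval -0.40 to 0.95, adjusted p 0.752, edgeR), and 0.07 without H3K9M replicate 1. Of its annotated exon bases, 8.1% are shared with Dclre1c, a DNA repair gene on the opposite strand.

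Setdb1, the TRIM28-directed enzyme (chromosome 3, 95323525 to 95357202, minus strand), had 38.5, 45.7 and 50.4 CPM in H3K9M replicates 1, 3 and 5 and 49.3, 59.5 and 43.1 CPM in H3WT replicates 1, 2 and 4. The groups overlapped, and H3WT replicate 2 was the highest library. The log2 fold change was -0.17 (SE 0.17, 95% interval -0.57 to 0.22, adjusted p 0.729, edgeR), and leaving out H3WT replicate 4 made it -0.28, leaving out H3WT replicate 2 made it -0.03, and leaving out H3K9M replicate 1 made it -0.07. The correction for GC content and length gave -0.09. Setdb2 (chromosome 14, 59402009 to 59440880, minus strand) had 8.71, 9.33 and 9.69 CPM in H3K9M replicates 1, 3 and 5 and 11.2, 9.86 and 8.25 CPM in H3WT replicates 1, 2 and 4. The H3K9M values of Setdb2 lay within the H3WT range. Its log2 fold change was -0.08 (SE 0.24, 95% interval -0.64 to 0.48, adjusted p 0.931, edgeR), and leaving out H3WT replicate 4 made it -0.18 while leaving out H3WT replicate 1 turned it to 0.03. The correction for GC content and length gave -0.23.

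**Figure D2:**
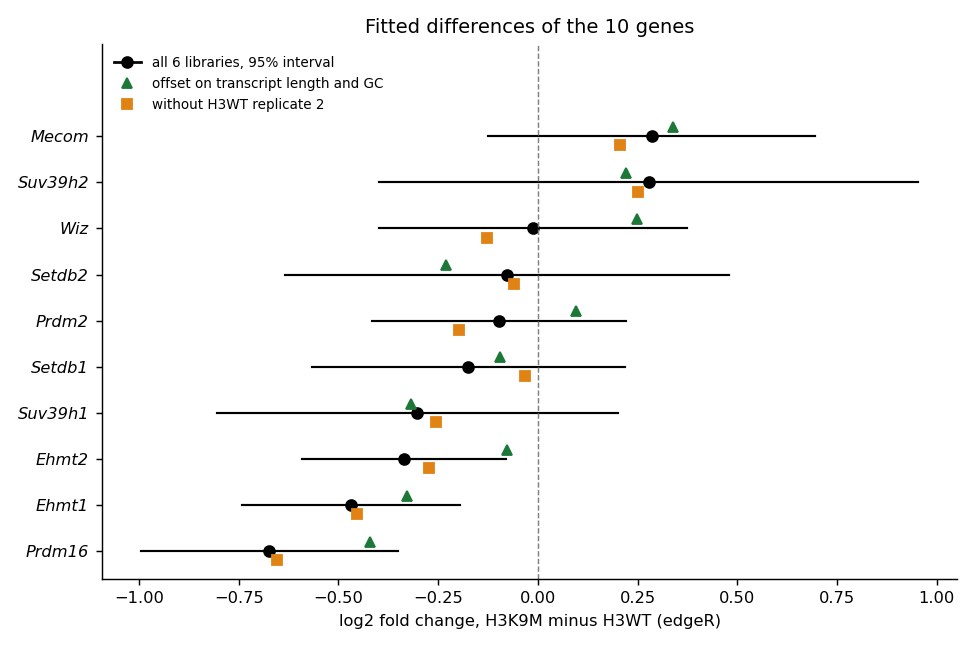
Log2 fold change (H3K9M minus H3WT) of each of the 10 genes with its 95% interval, and the value corrected for GC content and transcript length (triangles) and without H3WT replicate 2 (squares). The intervals of Prdm16, Ehmt1 and Ehmt2 lie below 0, the correction moves these 3 genes toward 0. Of them Ehmt2 moves the most, from -0.34 to -0.08, and Wiz moves as far in the same direction, from -0.01 to 0.25.

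The intervals limit how large a difference these libraries leave room for. The lowest bound of any interval was that of Prdm16, at a ratio of H3K9M to H3WT of 0.501, and the highest was that of Suv39h2, at 1.94.

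Promoter sequences were read for the 4 genes whose groups did not overlap, and are shown for 3 of them. RefSeq (GRCm38.p6) gave windows of 250 bases upstream of a transcription start for 9 of the 10 genes, 15 windows in all, with 2 each for Ehmt2 and Mecom. A start need not be the outermost of its gene: the Prdm16 window and the second Ehmt2 window lie inside the RefSeq gene, the second Mecom window lies in an annotated UTR, and none of these is printed. Each sequence is printed 5′ to 3′ on the strand of its gene, from base 250 upstream of the start, and stops before the RefSeq gene and any annotated UTR. Capitals mark the GC box GGGCGG or its reverse complement CCGCCC, a short motif of CpG-rich promoters bound by SP-family factors. The windows are chr2:24919644-24919859 (Ehmt1, minus), chr17:34898224-34898462 (Ehmt2, plus) and chr3:30509823-30510009 (Mecom, minus).
Ehmt1: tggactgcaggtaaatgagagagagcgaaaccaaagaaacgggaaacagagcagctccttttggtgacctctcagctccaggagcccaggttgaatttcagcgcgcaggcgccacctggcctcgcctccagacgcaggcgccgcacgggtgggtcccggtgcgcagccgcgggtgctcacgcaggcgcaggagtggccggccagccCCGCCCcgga
Ehmt2: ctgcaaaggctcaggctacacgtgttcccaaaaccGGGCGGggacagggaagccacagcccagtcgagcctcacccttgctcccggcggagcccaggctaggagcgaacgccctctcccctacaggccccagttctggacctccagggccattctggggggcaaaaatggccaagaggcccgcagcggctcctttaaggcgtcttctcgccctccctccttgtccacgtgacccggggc
Mecom: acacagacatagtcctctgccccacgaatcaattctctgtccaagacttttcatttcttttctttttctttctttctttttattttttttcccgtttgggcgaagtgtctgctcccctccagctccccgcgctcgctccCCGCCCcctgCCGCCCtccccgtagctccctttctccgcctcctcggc
The full windows held 22 CG dinucleotides in Prdm16 and 26 in Ehmt1, 18 and 36 in the 2 windows of Ehmt2, and 14 and 8 in those of Mecom, against a median of 6 over 32851 RefSeq promoter windows. The GC box, searched on both strands, was in 11 of the 15 windows and in 8 of the 9 genes, against 32.7% of all windows. It was in every window of these 4 genes except the second of Mecom. CCAAT was in 7 of the 15 windows, against 33.8% of all, and TATAAA in 0 of the 15, against 12.4%. The shares and the median over all windows were not limited to genes expressed in these cells. These matches describe letters in the windows and do not show binding.

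Levels were compared between genes per kb of annotated exon. Ehmt2 was the highest by far, at 32.5 to 45.0 CPM per kb over the 6 libraries and above 90.9% of the 12976 tested genes with a length. It took 41.8% to 46.9% of the summed CPM per kb of the 10 genes in a library. Prdm2 followed with 9.47 to 12.8 CPM per kb, then Ehmt1 (6.91 to 10.8), Wiz (6.09 to 8.22), Setdb1 (5.62 to 8.68) and Suv39h1 (4.02 to 7.41). Below these came Prdm16 (2.42 to 4.08), Setdb2 (2.04 to 2.76), Mecom (1.50 to 2.38) and Suv39h2 (1.40 to 2.43), the last of them above 23.3% of tested genes.

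Apart from Ehmt2 and Prdm2, every pair of neighbours in this order overlapped over the 6 libraries, Suv39h1 and Prdm16 only just. Per kb of the longest transcript in place of all exons, Mecom moved from place 9 to place 7, Ehmt1 from place 3 to place 2 and Prdm2 from place 2 to place 3. Within libraries, Ehmt2 was above Prdm2 and Suv39h1 above Prdm16 in 6 of 6 by either length. No other pair of neighbours kept its order in all 6 libraries by both lengths. The summed level of the 10 genes was 76.9, 80.3 and 80.1 CPM per kb in H3K9M replicates 1, 3 and 5 and 98.5, 95.8 and 89.1 CPM per kb in H3WT replicates 1, 2 and 4. H3K9M was lower in every library, a sum to which Ehmt2 gives the largest part. The sum was not corrected for GC content and length, a correction that took the log2 fold change of Ehmt2 from -0.34 to -0.08.

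**Figure D3:**
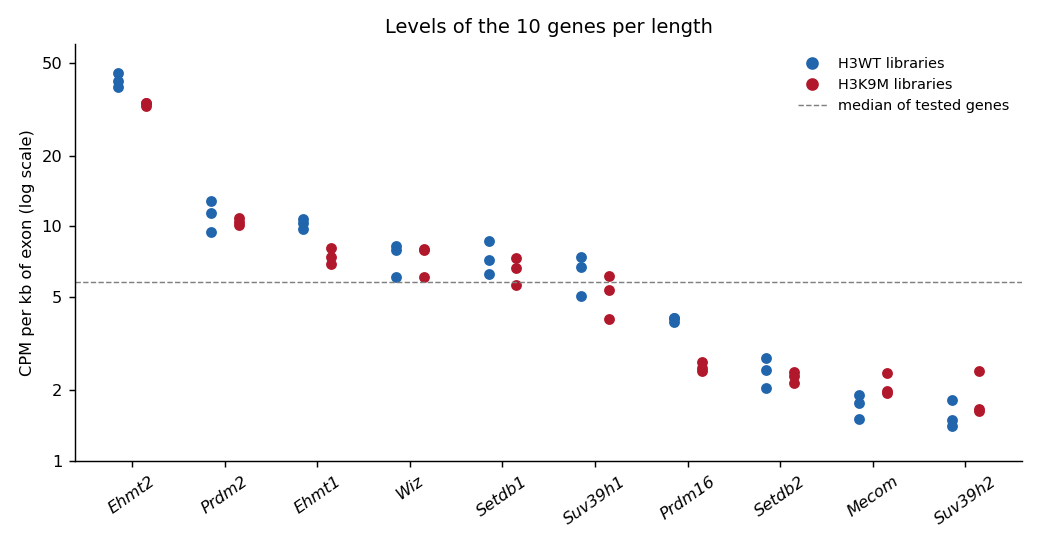
CPM per kb of exon (log axis) of the 10 genes in the 3 H3WT and 3 H3K9M libraries, ordered by the mean over all 6. Ehmt2 lies at 32.5 to 45.0, above all others, and Setdb2, Mecom and Suv39h2 overlap at the low end.

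Ratios of related genes within a library do not depend on the scaling between libraries, and 4 pairs are described, chosen after the counts had been seen and so given without a test. The ratio of Prdm16 to Mecom (CPM per kb) was 1.22, 1.11 and 1.28 in the H3K9M libraries (replicates 1, 3 and 5) and 2.31, 2.70 and 2.05 in the H3WT libraries (replicates 1, 2 and 4). The ratio was thus 1.95-fold higher in H3WT by geometric means, with every H3WT library above every H3K9M library. This separation follows from the genes themselves, since the groups did not overlap for either and lay in opposite order. Leaving out each library in turn gave log2 differences from -1.05 to -0.86, around -0.96 with all libraries. The ratios were not corrected for GC content and length, whose effects can differ between the 2 genes of a pair. For the genes singly, that correction moved Prdm16 from -0.67 to -0.42 and Mecom from 0.29 to 0.34.

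The ratio of Suv39h1 to Suv39h2 was 2.54, 2.47 and 3.21 in the H3K9M libraries and 4.07, 4.49 and 3.59 in the H3WT libraries, in the same order. Here too the groups did not overlap, although each gene alone did overlap (log2 difference -0.57). Suv39h2 had only 105 to 160 reads in a library. How often ratios of other gene pairs separate these libraries was not examined. The ratio of Ehmt2 to Ehmt1 was 4.47 ± 0.345 in H3K9M and 4.07 ± 0.243 in H3WT (SD, n = 3 each), with overlapping groups. That of Setdb1 to Setdb2 was 2.86 ± 0.230 and 3.09 ± 0.478 (SD, n = 3 each). The pairs that did not separate the groups were those whose genes had fitted differences of the same sign.

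**Figure D4:**
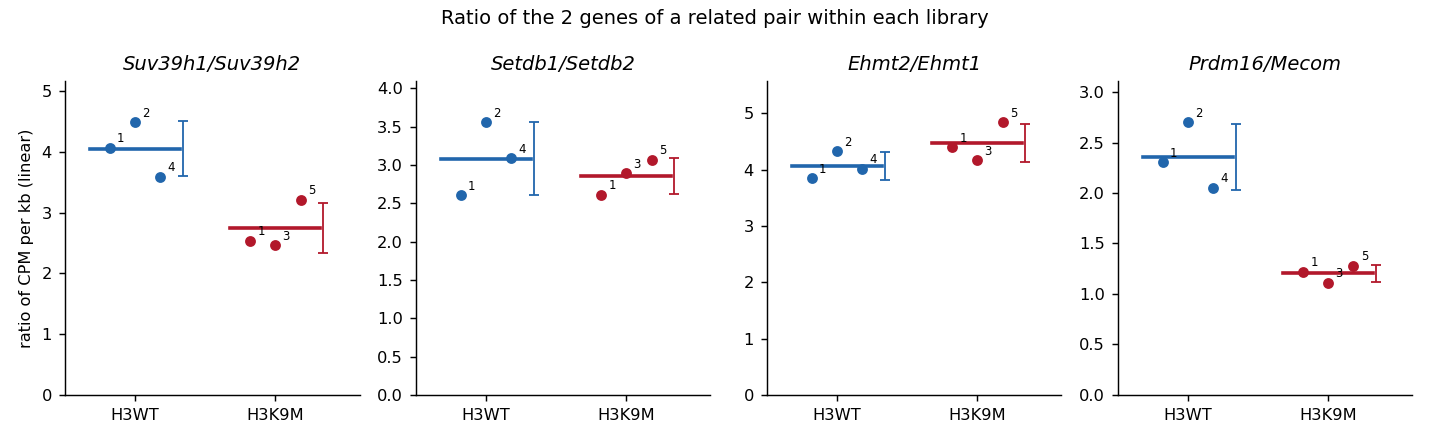
Ratio of CPM per kb of the 2 genes of a pair in each library (linear axis from 0), with replicate numbers, group means as lines and the SD over 3 libraries as error bars. The groups do not overlap for Prdm16 to Mecom (1.11 to 1.28 in H3K9M, 2.05 to 2.70 in H3WT) or Suv39h1 to Suv39h2, and do for the other pairs.

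The other genes of the pathway did not pass the threshold either. Of 12 other PRDM genes, 6 were tested, 0 passed, 3 were higher and 3 lower, and their median log2 fold change was -0.04, a sign that turned with library size alone (0.02), with the correction for GC content and length (0.02) and with every gene with a read tested (0.04). Prdm15 had the smallest p among the higher (0.31, SE 0.23, adjusted p 0.62, edgeR). Prdm9, the meiotic methyltransferase that places recombination sites, had it among the lower (-0.44, SE 0.55, adjusted p 0.798). It was low but present in every library, at 1.07, 3.09 and 3.47 CPM in H3K9M replicates 1, 3 and 5 and 4.04, 3.32 and 3.06 CPM in H3WT replicates 1, 2 and 4. Prdm1, Prdm12 and Prdm13 had 0 reads in all libraries.

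Of 20 cofactors and readers, 19 were tested and 0 passed, with 6 higher, 13 lower and a median log2 fold change of -0.06, or -0.12 without H3WT replicate 4. Uhrf1, which reads H3K9 methylation and couples it to maintenance of DNA methylation, had the smallest p among the lower (-0.53, SE 0.20, adjusted p 0.364, edgeR). Its values were 83.6, 61.7 and 89.3 CPM in H3K9M replicates 1, 3 and 5 and 128, 126 and 84.3 CPM in H3WT replicates 1, 2 and 4, and its groups overlapped. As with Suv39h1, the lowest library within each group was the one with the lowest replication and mitosis sum. Chaf1a, of the chromatin assembly factor that loads histones behind the replication fork, was the other cofactor at an unadjusted p under 0.05 (-0.51, SE 0.21, adjusted p 0.382). Adnp was the 1 whose groups did not overlap (-0.22, SE 0.10, adjusted p 0.43). Both were named after their values were seen. Thus 2 of the 19 tested cofactors were at that unadjusted level, both lower, against 12.2% of all genes, or 5.77% in that direction. Only 1 of the 19 had groups apart, with H3K9M below, against 19.4% of all genes, or 8.68% in that direction. Atf7ip, the SETDB1 cofactor, had the smallest p among the higher (0.18, SE 0.15, adjusted p 0.685). Trim28, the corepressor that brings SETDB1 to its sites, had -0.23 (SE 0.15, adjusted p 0.563), and was named after its value was seen.

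Of 11 demethylases of H3K9, 10 were tested and 0 passed, with 4 higher, 6 lower and a median log2 fold change of -0.09, which became -0.26 when H3WT replicate 2 was left out, and -0.02 when H3WT replicate 1 or 4 was. Phf2, a PHD-finger demethylase known from cartilage and bone, had 78.1, 73.7 and 77.8 CPM in H3K9M replicates 1, 3 and 5 and 97.2, 90.2 and 97.9 CPM in H3WT replicates 1, 2 and 4. Its groups did not overlap (-0.31, SE 0.11, adjusted p 0.32, edgeR). Kdm1a, the LSD1 demethylase, had 91.2, 105 and 105 CPM in H3K9M replicates 1, 3 and 5. In H3WT replicates 1, 2 and 4 it had 87.4, 85.9 and 79.8 CPM, also without overlap (0.25, SE 0.12, adjusted p 0.428, edgeR). Of the 10 demethylases tested, 1 thus lay all below and 1 all above, near the 8.68% and 10.7% of all genes. Of the 16 replication and mitosis genes 0 passed, and their median was -0.15, turning to 0.05 without H3K9M replicate 3 and reaching -0.32 without H3WT replicate 4. It was -0.03 without H3WT replicate 1 or 2. Mcm2 had the smallest p among the lower (-0.21, adjusted p 0.658) and Ccnb1 among the higher (0.34, adjusted p 0.659).

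**Figure D5:**
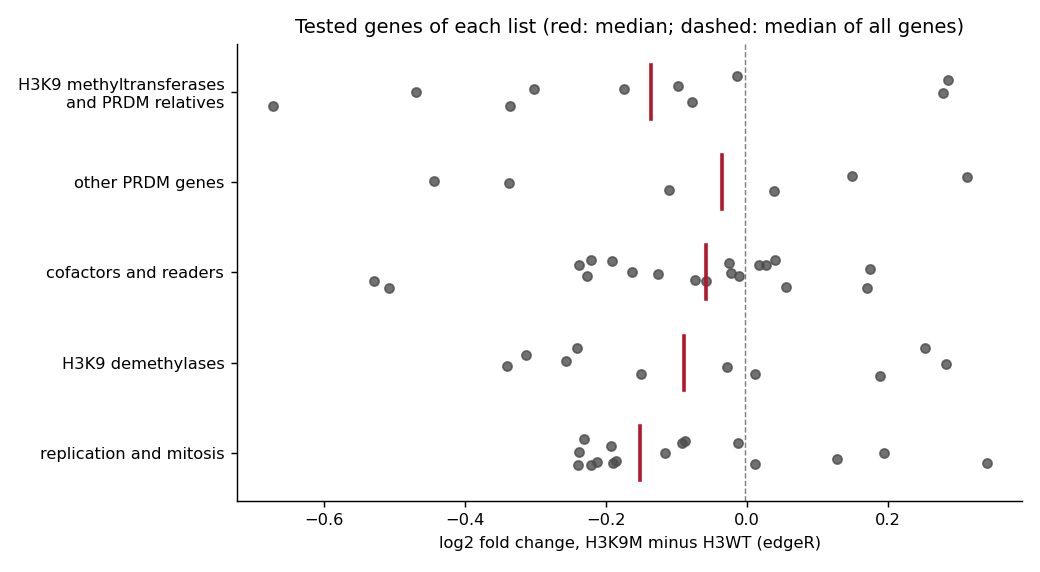
Log2 fold change (H3K9M minus H3WT) of each tested gene of 5 lists, with the list median as a red bar and the median of all tested genes as a dashed line; points are spread vertically for legibility. The medians lie between -0.15 and -0.04; those of the other PRDM genes and of replication and mitosis turned sign in some refits, and no gene of these lists passed the adjusted threshold in edgeR.

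Markers of other cell types were read beside Prdm16, which is also expressed outside cartilage. Of 8 skeletal muscle markers 4 were tested, all with positive log2 fold changes, and 0 passed. Their summed level was 153, 223 and 21.0 CPM in H3K9M replicates 1, 3 and 5 and 11.1 to 31.7 CPM in H3WT. Des was the highest of them and Myod1 had the smallest p, with 19.5, 57.0 and 4.29 CPM in the H3K9M libraries and 0, 1.04 and 0 CPM in H3WT. Myf5 and Pax7 had 0 reads in all libraries. Myod1, Myh3 and Des were above every H3WT library in all 3 H3K9M libraries, as were 10.7% of all genes. They were at an unadjusted p under 0.05 (edgeR), as were 6.42% of all genes in that direction. Myod1 and Myh3 could not have passed the filter on low counts through the H3WT libraries alone. A positive sign was thus nearly fixed in advance for both, and is not support. Acta1 made up most of the sum in H3WT replicates 1 and 4. Myh3 and Acta1 were named after their values were seen. H3K9M replicate 5 had the least Myod1, Myh3 and Des of its group, and its Prdm16, at 23.3 CPM, lay between those of the other H3K9M libraries. The part of muscle-like cells in the Prdm16 values was not tested.

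Of 10 adipocyte markers 4 were tested and 0 passed, with sums of 25.1 to 44.9 CPM in H3K9M and 42.3 to 51.7 CPM in H3WT. Ucp1, the marker of brown fat, had 1 read in all libraries together and Lep had 0, while Pparg was the highest. Lpl had the smallest p (-1.09, SE 0.50, adjusted p 0.43, edgeR). Of 8 endothelial markers only Erg was tested (-0.72, SE 0.40, adjusted p 0.501), Cdh5, Tie1, Emcn and Sox17 had 0 reads, and sums were 5.85 to 13.6 CPM against 11.5 to 22.6 CPM. Of 8 macrophage and blood markers 3 were tested, with sums of 8.04 to 16.5 CPM against 3.84 to 6.29 CPM and Ptprc, Adgre1, Hbb-bs and Gata1 at 0 reads. Cd68 was the highest of these and had the smallest p (1.75, SE 0.76, adjusted p 0.411). Prdm16 lay between 36.5 and 38.1 CPM in the H3WT libraries, while the cartilage marker sum in the same libraries ran from 7221 to 19055 CPM. In bulk RNA, fewer cells that express a gene and less RNA of it per cell cannot be told apart.

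By the profile over the 6 libraries (Pearson's r of log2 CPM, a description of the closest of 13760 other genes), the genes most like Prdm16 were Ppara (0.994), Taco1 (0.989) and Wdr36 (0.989). Ppara, a nuclear receptor of fatty acid metabolism, had 0, 0.0483 and 0 CPM in H3K9M replicates 1, 3 and 5 and 1.07, 1.56 and 0.884 CPM in H3WT replicates 1, 2 and 4, near the floor of detection in H3K9M (log2 fold change -5.58, which depends on the prior count; adjusted p 0.219, edgeR). Ppara passed the filter on low counts only through the H3WT libraries. A difference in this direction was thus nearly fixed in advance, and its likeness to Prdm16 is not support. With 6 libraries, 61 genes had an r over 0.95 with Prdm16. Within the 10 genes, Prdm16 was most like Ehmt1 (0.972) and Ehmt2 (0.960), genes that share with it the difference between the groups.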

How the data were processed

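Polyadenylated RNA of 3 H3K9M and 3 H3WT libraries was made into libraries with a Tecan kit (Universal Plus mRNA-Seq), per the labels' protocols. The authors deposited raw read counts per gene symbol. The submitters' processing notes name HISAT2, featureCounts, DESeq2 and the build mm10, with no versions; strand and overlap settings are not given in the sources used here. Groups came from the sample titles, and 0 columns and 0 rows were unassigned. Replicates were compared for repeated libraries and none was found (counts differed by 26.5 to 114 times sampling variance).

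The fit used edgeR 4.0.16 under R 4.3.3 (filterByExpr, TMM, quasi-likelihood test with robust dispersion, genotype as the only term), and p-values were adjusted by Benjamini-Hochberg over 13761 genes (threshold 0.05). The SE is the log2 fold change over the square root of F, and intervals (95%) use the fit's degrees of freedom. Alternatives were DESeq2 1.42.0, limma-voom (limma 3.58.1), other scalings and filters, no robust estimation, a loess offset (span 0.5) on length and GC content of the longest GENCODE M21 transcript (found for 94.3% of tested genes), and leaving out each library. Genes sharing sequence were looked for with blastn 2.17.0: Setdb1 shares 295 bases with Gm4349. Shared exon bases came from GENCODE M21, coordinates and promoters from RefSeq GRCm38.p6, the same assembly as mm10. No protein sequence was used here. Totals of 15113675 to 19606082 reads limit the precision of low genes; 3 counts or fewer were treated as the floor.

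The 10 genes and all lists were chosen with earlier results of these data known. Named from each list were any past the threshold or, with none, the gene of smallest p on either side of 0, and for cell type markers also the highest and those at 0 (Tasor and Cnmd stand in the table as Fam208a and Lect1); for Prdm16, the member with the smallest p and the largest change fitted, also the 3 genes most like it. Any other gene is said to be named after its values were seen.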

Additional observations from a re-analysis of the deposited data

How the results depend on the processing

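The count of all genes past the threshold, 0 in the reported fit, was 390 with DESeq2 and 36 when every gene with a read was tested, and 0 to 91 over fits without 1 library (91 without H3WT replicate 2, 2 without H3K9M replicate 3); the cause was not tested. Of the 10 genes, 1 (Prdm16) passed with DESeq2 and 0 in the other 14 settings. Signs turned for Prdm2 with the length and GC offset (0.0948) and for Wiz with limma-voom (6.14e-05), library size alone (0.0536) and that offset (0.25). Leaving out a library gave -0.20 to 0.0078 for Prdm2, -0.18 to 0.0302 for Setdb2, -0.13 to 0.11 for Wiz and -0.22 to 0.0078 for the Setdb1 to Setdb2 ratio. Directions of the other 7 genes held in all 14 refits, although Suv39h2 and Setdb1 came down to 0.07 and -0.03 without 1 library. Library size alone moved the median of all genes to 0.0534, from -0.00288, the largest shift of any scaling tried. No paired analysis was possible because the groups share only replicate number 1.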

Other observations

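The closest profiles of other members were also examined, and the genes below were named after their values were seen. Ehmt1 was most like Nod1, Mga and Gbf1 (r 0.996, 0.993 and 0.986 over 6 libraries, as a description), and 43 genes had an r over 0.95 with it. Of these 3, Mga was singled out for what it encodes, a MAX-binding factor of a Polycomb-related complex known to hold G9a and GLP. Mga had 78.2, 89.7 and 73.8 CPM in H3K9M replicates 1, 3 and 5 and 115, 110 and 109 CPM in H3WT replicates 1, 2 and 4. Its groups did not overlap, as was true of 19.4% of all genes (log2 fold change -0.47, SE 0.12, adjusted p 0.227, edgeR). Mga was found by its likeness to Ehmt1 in these same libraries. A difference like that of Ehmt1 was thus nearly fixed in advance, and is not support. L3mbtl2, another gene of that complex, overlapped between the groups (-0.13, SE 0.22, adjusted p 0.872). Suv39h1 was most like Pole, the catalytic subunit of a replicative DNA polymerase (r 0.998), which had 61.7, 34.6 and 50.6 CPM in H3K9M replicates 1, 3 and 5 and 79.4, 68.3 and 44.8 CPM in H3WT replicates 1, 2 and 4. Mecom was most like Rab11fip2, Cep70 and Vcam1 (r 0.991, 0.990 and 0.987). Vcam1, a cell adhesion molecule, was highest in H3K9M replicate 3 (70.3 CPM) and lowest in H3WT replicate 2 (15.5 CPM), as Mecom was.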
